A study of Homo sapiens with 6 samples.

Results

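Deferasirox (DFX) is an oral iron chelator, and iron is the metal that drives the lipid peroxidation of ferroptosis. The results below concern 10 genes of ferroptosis defense and of the NRF2 response, GPX4, SLC7A11, ACSL4, AIFM2, NFE2L2, NQO1, TXNRD1, GCLC, GCLM and SRXN1, in 6 xenograft tumors. The genes were chosen by symbol, and every array probe that carried one of these symbols was kept. This gave 11 probes out of 50599 on the array, which stood for 10 out of 34423 gene names. The tumors were grown from BxPC-3, an epithelial line from a human pancreatic adenocarcinoma, under the skin of female BALB/c (nu/nu) mice that entered the experiment at 8 to 10 weeks of age. Dosing started at a tumor volume of 150 mm3. The 3 control tumors came from mice given the vehicle alone. The 3 DFX tumors came from mice given 200 mg/kg DFX in saline by gavage, 3 times a week for 21 days. Each tumor was hybridized to its own array, so the replicates are separate tumors of a single cell line in 1 host strain. A nude mouse lacks T cells but keeps other host cells, and mouse RNA can be present in the samples.

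Ferroptosis is a form of cell death in which iron-dependent peroxides build up in membrane lipids. The cell opposes it along several lines. The cystine importer SLC7A11 supplies cysteine, the ligase subunits GCLC and GCLM use it for glutathione, and GPX4 uses glutathione to reduce lipid peroxides. AIFM2, also called FSP1, works beside this route by regenerating ubiquinol. ACSL4 acts in the other direction, since it loads polyunsaturated fatty acids into membranes, so it is not a defense gene. NFE2L2 encodes NRF2, the transcription factor that KEAP1 holds down until oxidants or electrophiles release it. SLC7A11, NQO1, TXNRD1, GCLC, GCLM and SRXN1 are well-known NRF2 targets.

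What an array measures depends on its 60-base probes, and 3 of them bear on how the values below can be read. The GPX4 probe, at chr19:1105673-1105732 of hg19 on the plus strand, shared no run of 16 bases with a probe of any other gene. Compared in the same orientation, this also held for the other member probes except those of NFE2L2 and GCLM. Only probes of this array were compared. The NFE2L2 probe, at chr2:178095693-178095752 on the minus strand, had an adenine share of 55.0%, higher than that of 99.9% of the probes, and shared runs of 16 bases with 2 probes of other genes. The GCLM probe, at chr1:94352810-94352869 on the minus strand, shared such runs with 6 probes of other genes. In the sequences that follow, runs of 4 or more adenines are in capitals.
GPX4 probe: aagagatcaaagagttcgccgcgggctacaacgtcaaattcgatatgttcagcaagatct
NFE2L2 probe: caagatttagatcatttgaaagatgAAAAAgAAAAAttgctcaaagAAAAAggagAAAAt

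Before these values, 4 facts of the whole series matter. All 6 arrays lay on 1 slide with the control tumors in row 1 and the DFX tumors in row 2, so the row and the treatment cannot be told apart. Between 54.1% and 59.8% of the spots on an array were well above background, and no spot was saturated. All 8 epithelial markers looked up, among them EPCAM and KRT19, were well above background on every array, and the acinar genes CPA1, CTRB1 and PNLIP on none. Of the stromal and blood vessel markers, 4 of 6 for fibroblasts, 3 of 6 for leukocytes and 3 of 5 for endothelium were well above background on every array, and PDGFRB, CSF1R, CD163 and KDR on none. At an unadjusted limma p under 0.05, which 7.98% of all tested genes passed, these markers moved both ways. Of 5 tested fibroblast markers LUM was higher in the DFX tumors (log2 fold change 0.87) and DCN lower (-1.30). Of 4 tested endothelial markers PECAM1 was higher (1.27), and 0 of 4 leukocyte markers passed. The summed linear signal of 5 red blood cell markers was 5220 to 6760 in the control tumors and 1620 to 1740 in the DFX tumors, and AHSP among them was well above background on no array. Most of each sum was HBA2 alone, at 4950 to 6500 in the control tumors and 1420 to 1540 in the DFX tumors. HBD was also lower in all DFX tumors, HBB overlapped between the groups, and ALAS2 and AHSP were too dim to be tested. The sum over 6 intestinal epithelial markers, 3 of them well above background on every array, was 340 to 1590 and 2360 to 4160. All 5 tested markers of this list passed the unadjusted limma threshold, all higher in the DFX tumors. The sum over the 8 epithelial markers was 646000 to 660000 and 671000 to 683000. KRT19, the largest part of it, was at 355000 to 382000 in both groups. Of the 8, 3 passed the threshold, all higher, EPCAM (log2 fold change 0.43), KRT8 (0.48) and KRT18 (0.27). The part of these shifts in the values below was not tested. In bulk RNA, fewer cells of a type and less RNA per cell cannot be told apart.

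No difference between the DFX and the control tumors was detected for any of these genes. A probe was tested when its signal differed from background on all 6 arrays at a p under 0.05, which 9 of the 11 probes did, 1 for each gene but NFE2L2. All 9 were well above background on every array. The log2 fold changes, which are DFX minus control throughout, ran from -0.22 for GPX4 to 0.26 for GCLC, with 5 above and 4 below zero. With limma, 0 of the 9 probes passed an unadjusted p under 0.05, a threshold that 8.41% of all 31807 tested probes passed (3.46% higher and 4.95% lower in the DFX tumors), and 0 passed after adjustment, as did 0.0% of all probes. The linear model without moderation also called 0 of the 9 unadjusted, and the Kruskal-Wallis H test called 1, GPX4. The adjusted p-values from limma with Benjamini-Hochberg adjustment lay between 0.643 and 0.990. The median log2 fold change was 0.047, against -0.025 over all tested probes. The median size of the change without its sign was 0.171, against 0.159 over all tested probes.

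These data limit how large an undetected change could be. The standard errors were 0.11 to 0.21 on the log2 scale, with a median of 0.151 against 0.170 over all tested probes. A change had to exceed 0.26 to 0.52 on the log2 scale, depending on the gene, to pass the unadjusted threshold. The 95% intervals of all 9 genes stayed within 2-fold in both directions, from -0.57 for TXNRD1 at the lower end to 0.70 for SLC7A11 at the upper end. For 7 of the 9 genes the difference between the group means was smaller than the larger of the 2 standard deviations.

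**Figure D1:**
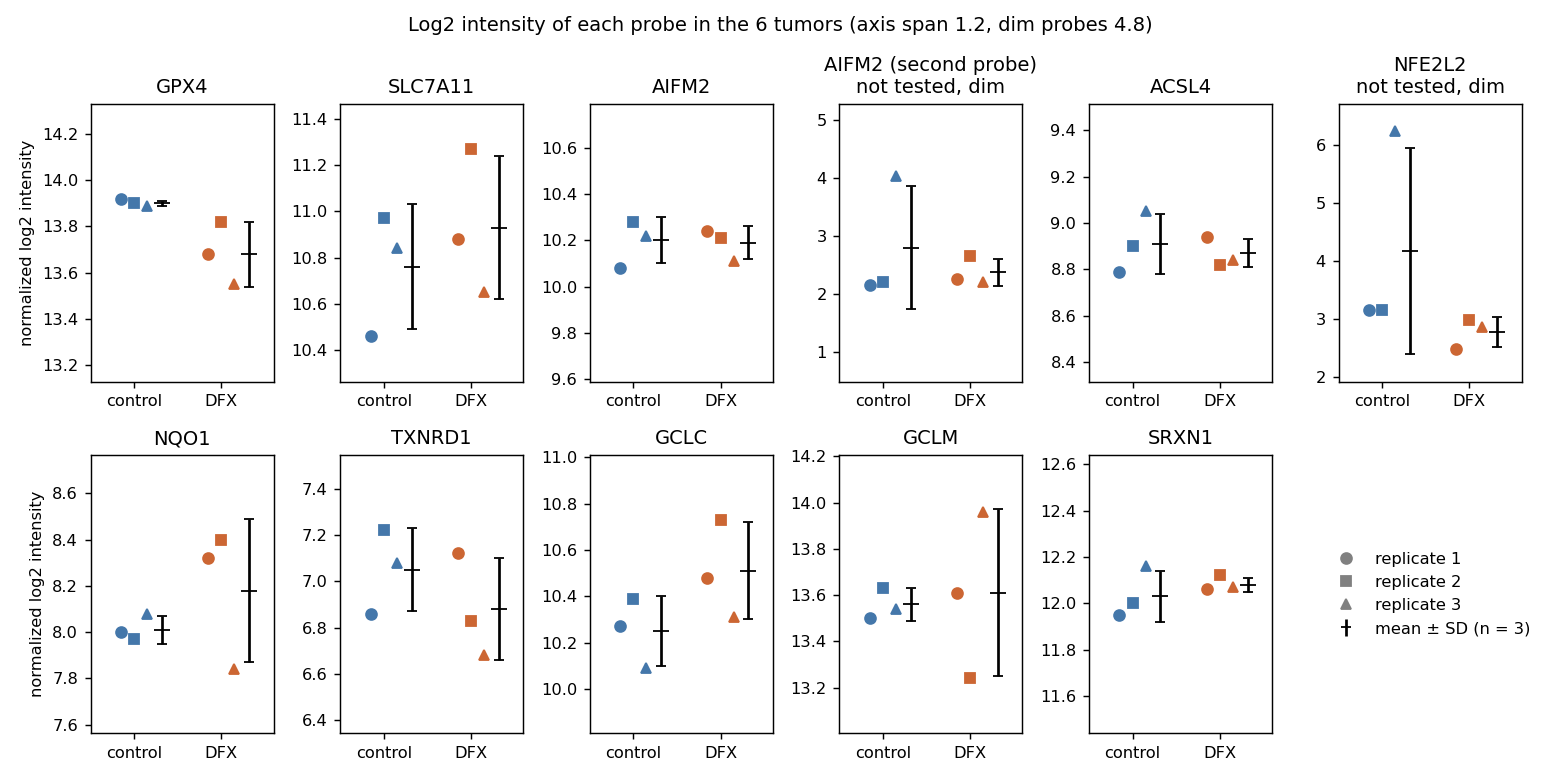
Normalized log2 intensity (vertical axis) of each of the 11 probes in the 3 control and 3 DFX tumors, with symbols for replicates and bars for the mean ± SD (n = 3). GPX4 is the only tested gene with all DFX tumors below all control tumors, at 13.55 to 13.82 against 13.89 to 13.92, and NFE2L2 stands out in control replicate 3 at 6.24.

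GPX4, the selenoprotein that reduces lipid peroxides inside membranes, was the only tested gene of the 10 whose groups did not overlap. Its normalized log2 intensity was 13.92, 13.90 and 13.89 in control replicates 1 to 3 and 13.68, 13.82 and 13.55 in DFX replicates 1 to 3. The 3 control tumors were almost equal, with an SD of 0.01, while the DFX tumors spread with an SD of 0.14. On the log2 scale DFX minus control was -0.22 (standard error 0.11), a change in intensity of -14.2% with a 95% interval from -29.0% to 3.70%. The adjusted p from limma was 0.643 and the unadjusted p 0.0955. Permuting the labels of the 6 tumors exactly, two-sided, gave p = 0.1, and 3 tumors against 3 cannot go lower. Groups without overlap were found for 15.5% of all tested probes, with DFX lower for 9.15% and higher for 6.34%, so 1 of 9 is near the background. With the raw mean signal, which is not corrected for background, the unadjusted limma p was 0.0262 at a log2 fold change of -0.24, and with normexp correction it was 0.0324. These settings called 2875 and 2766 of all 31807 tested probes, against 2675 as reported. Over 18 alternatives of processing, test or tumors used, the GPX4 value ran from -0.32 to -0.15, and 3 of them called it.

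SLC7A11, the light chain of the cystine-glutamate exchanger, varied between tumors more than between groups. Its log2 intensity was 10.46, 10.97 and 10.84 in control replicates 1 to 3 and 10.88, 11.27 and 10.65 in DFX replicates 1 to 3. DFX replicate 2 was the highest of all and control replicate 1 the lowest, and the groups overlapped. The difference was 0.18 on the log2 scale (standard error 0.21), and its interval, from -0.34 to 0.70, was the widest among the 9 genes. Without DFX replicate 2 the difference was 0.0078, without control replicate 1 it was 0.027, and without DFX replicate 3 it was 0.32. SLC3A2, the heavy chain that brings SLC7A11 to the cell surface, was at 9.99, 10.32 and 10.32 in control replicates 1 to 3 and at 10.03, 10.07 and 9.75 in DFX replicates 1 to 3. SLC3A2 was at -0.26 for DFX minus control on the log2 scale (standard error 0.15, unadjusted limma p of 0.134), so both chains of the exchanger missed the threshold and their mean changes had opposite signs.

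AIFM2 and ACSL4 had mean differences near zero. AIFM2 was at 10.08, 10.28 and 10.22 in control replicates 1 to 3 and at 10.24, 10.21 and 10.11 in DFX replicates 1 to 3, and its log2 fold change was -0.0074 (standard error 0.11). In percent of the control intensity the interval ran from -17.0% to 19.3%. A second AIFM2 probe, designed on another transcript and placed at chr10:71858168-71858227, was well above background on no array and gives no level. ACSL4 was at 8.79, 8.90 and 9.05 in control replicates 1 to 3 and at 8.94, 8.82 and 8.84 in DFX replicates 1 to 3. Its log2 fold change was -0.044 (standard error 0.11), and its interval ran from -19.9% to 17.5%. All 3 DFX values of ACSL4, and all 3 of AIFM2, lay within the range of the control tumors.

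NFE2L2 itself could not be compared. Its only probe gave log2 intensities of 3.16, 3.16 and 6.24 in control replicates 1 to 3 and of 2.48, 2.98 and 2.87 in DFX replicates 1 to 3. It was well above background in control replicate 3 alone. The highest of these values therefore belongs to 1 tumor, and no fold or test is given, although the DFX values all lie below the control values. Control replicate 3 was the only array well above background for 710 probes, out of 3043 that were so on exactly 1 array, and the counts for the other arrays were 269 to 692. The 130 probes with at least 50% adenine had a median log2 intensity of 3.83 in that tumor and of 3.54 to 3.98 in the others. The part of the probe's composition in its low signal was not tested. A low signal of this probe does not show that NFE2L2 is weakly expressed.

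The mean differences of the NRF2 targets NQO1, TXNRD1 and SRXN1 went in both directions, and none was called. NQO1, the quinone reductase often read as the marker of NRF2 activity, was at 8.0, 7.97 and 8.08 in control replicates 1 to 3 and at 8.32, 8.40 and 7.84 in DFX replicates 1 to 3. DFX replicates 1 and 2 were above all control tumors and DFX replicate 3 was below them all. The mean difference was 0.17 on the log2 scale (standard error 0.17, interval -0.25 to 0.59). This value depended on single DFX tumors. Without DFX replicate 3, which lowered it, the value was 0.35 with an unadjusted limma p of 0.0276, and without DFX replicate 2 it was 0.064.

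TXNRD1, the cytosolic thioredoxin reductase and like GPX4 a selenoprotein, was at 6.86, 7.22 and 7.08 in control replicates 1 to 3 and at 7.12, 6.83 and 6.68 in DFX replicates 1 to 3. Its log2 fold change was -0.17 (standard error 0.16), and its groups overlapped. With 1 tumor left out it ran from -0.29 without DFX replicate 1 to -0.077 without DFX replicate 3. SRXN1, the sulfiredoxin that repairs overoxidized peroxiredoxins, was at 11.95 in control replicate 1, at 12.16 in control replicate 3 and between them in control replicate 2. It was at 12.06, 12.12 and 12.07 in DFX replicates 1 to 3. All 3 DFX values lay inside the control range, and the log2 fold change was 0.047 (standard error 0.11, interval -13.5% to 23.5%).

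Neither subunit of glutamate-cysteine ligase, the rate-limiting enzyme of glutathione synthesis, was called. GCLC, the catalytic subunit, was at 10.27, 10.39 and 10.09 in control replicates 1 to 3 and at 10.48, 10.73 and 10.31 in DFX replicates 1 to 3. Its log2 fold change of 0.26 (standard error 0.15) was the highest of the 9, a change in intensity of 19.4% with an interval from -7.54% to 54.3% and an unadjusted limma p of 0.141. DFX replicate 3 lay within the control range and the other DFX tumors above it. GCLM, the modifier subunit, was at 13.50, 13.63 and 13.54 in control replicates 1 to 3 and at 13.61, 13.24 and 13.96 in DFX replicates 1 to 3. The DFX tumors lay on both sides of the control tumors, and the log2 fold change was 0.048 (standard error 0.19). Without DFX replicate 3 the GCLM value turned to -0.13, and without DFX replicate 2 it was 0.23.

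The order of the DFX tumors was opposite for both subunits, since DFX replicate 2 was highest in GCLC and lowest in GCLM, and DFX replicate 3 the reverse. Relative to the mean of the 6 tumors, GCLM was at -0.34 in DFX replicate 2 and at 0.38 in DFX replicate 3. The 3 tested probes of other genes that hold the 16-base run most often shared with the GCLM probe had median deviations of -0.07 and 0.14 in these tumors, of the same sign and smaller. In the other tumors GCLM was at -0.08 to 0.05 and these probes at -0.04 to 0.03, with the same sign in each tumor. The part of other transcripts in the GCLM signal was not tested.

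**Figure D2:**
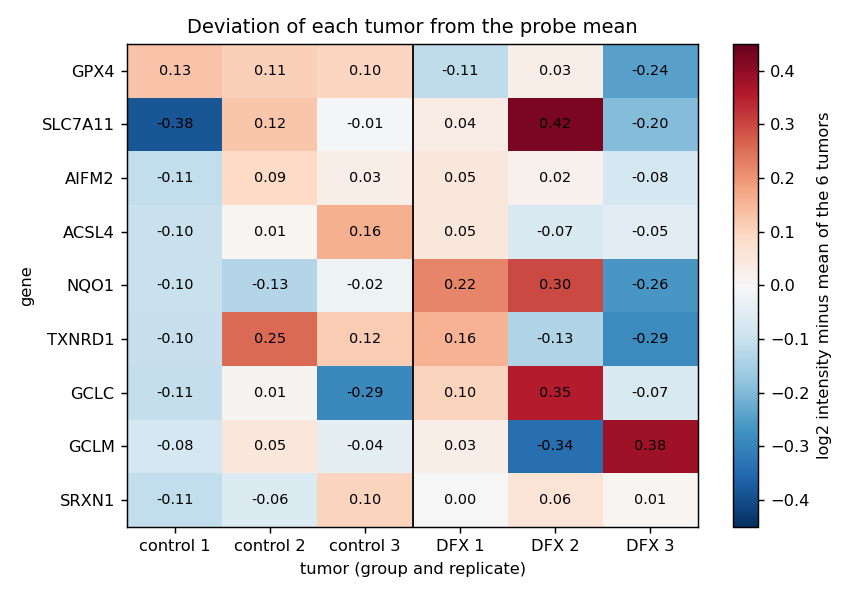
Deviation of each tumor's log2 intensity from the mean of the 6 tumors (color and printed value), for the 9 tested genes in rows and the 6 tumors in columns. DFX replicate 3 is the lowest DFX tumor for 6 of the 9 genes, and for GCLM it is the highest at 0.38.

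For 7 of the 9 tested genes the larger SD within a group exceeded the difference between the group means, and for GPX4 and GCLC it did not. Among the DFX tumors, replicate 3 was the lowest for 6 genes, GPX4, SLC7A11, AIFM2, NQO1, TXNRD1 and GCLC, where it was the lowest for 38.5% of all tested probes. Replicate 2 was the highest DFX tumor for 5 genes, GPX4, SLC7A11, NQO1, GCLC and SRXN1, against 34.2% of all tested probes. Among the control tumors, replicate 1 was the lowest for 6 genes, against 34.7% of all tested probes. The SD was larger in the DFX than in the control tumors for 6 of the 9 genes, against 46.3% of all tested probes. The largest differences within a group were those of GCLM, 0.72, SLC7A11, 0.62, and NQO1, 0.56, all in the DFX tumors and all larger than any difference between the group means.

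**Figure D3:**
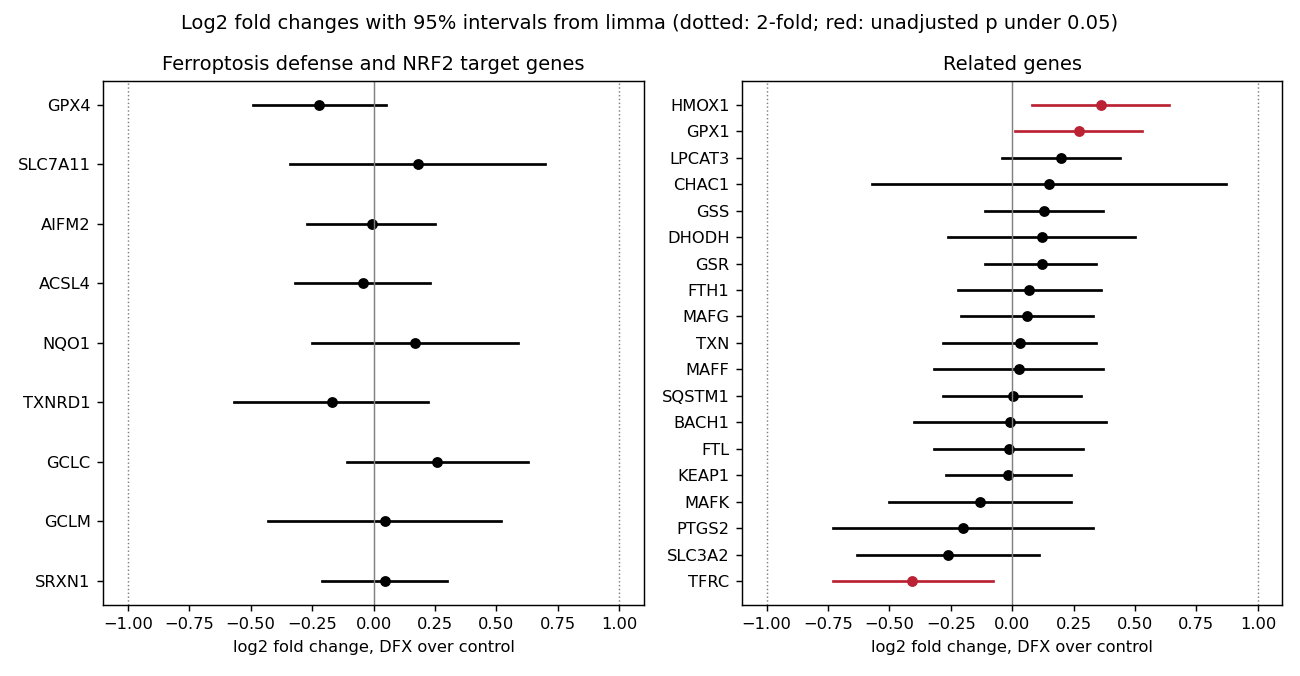
Log2 fold change of DFX over control tumors (horizontal axis) with the 95% interval from limma, for the 9 tested genes (left) and for 19 related genes named whatever their values (right), with red for an unadjusted p under 0.05 and dotted lines at 2-fold. On the left all intervals include zero and none reaches 2-fold, and on the right HMOX1 and GPX1 lie above zero and TFRC below it.

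Further genes of the same pathways were looked up in 7 lists, 150 genes in all, of which 147 had a tested probe. Each gene was read by its brightest tested probe. At an unadjusted limma p under 0.05, 14 of the 147 genes were called (9.52%), against 7.98% of all 22718 tested genes (3.68% higher and 4.29% lower). Of the 14, 8 were higher and 6 lower in the DFX tumors, and 0 passed after Benjamini-Hochberg adjustment. The split depended on the scaling between arrays. After 75th percentile scaling 6 were higher and 3 lower, and after median scaling, under which the median over all tested probes was -0.103, 0 were higher and 6 lower. Over the 147 genes the median change was -0.026 on the log2 scale, against -0.012 over all tested genes.

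Of 16 genes that regulate NRF2 or belong to its family, 1 was called higher and 1 lower, with a list median of -0.016. KEAP1, the adaptor that sends NRF2 to degradation, had -0.017 on the log2 scale (standard error 0.11), and SQSTM1, which can sequester KEAP1, had 0.0017 (standard error 0.12). BACH1, a repressor of NRF2 target genes, had -0.0089, and the small MAF partners of NRF2 had 0.027 for MAFF, 0.059 for MAFG and -0.13 for MAFK. A dimmer MAFG probe had -0.44 with an unadjusted limma p of 0.0434. NFE2L3, a factor of the same family, was higher in the DFX tumors at 10.56, 10.54 and 10.59 against 10.28, 10.23 and 10.22, which is 0.32 on the log2 scale (standard error 0.09). BACH2 was lower at 4.82, 4.92 and 5.04 against 5.60, 5.69 and 5.14, a log2 fold change of -0.55. With normexp correction this was -0.18 and with the raw mean signal -0.17, and the call was lost with both. A dimmer BACH2 probe, also called lower, was well above background on no DFX array.

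Other NRF2 targets went both ways. Of 28 tested genes, 2 were called higher and 2 lower, which is 14.3%, with a list median of -0.010. HMOX1, the heme oxygenase that releases iron from heme, was at 8.35, 8.41 and 8.15 in control replicates 1 to 3 and at 8.65, 8.73 and 8.61 in DFX replicates 1 to 3. The groups did not overlap, with DFX higher, as for 6.34% of all tested probes. HMOX1 was 0.36 higher on the log2 scale (standard error 0.11). Its adjusted p from limma was 0.546. AKR1B10, an aldo-keto reductase, had 0.40 on its brightest probe and 0.44 on the other one, both called. CBR3, a carbonyl reductase, had -0.36, and ABCC2, an export pump for conjugates, had -0.45 with 2 of the 3 DFX tumors well above background. The ABCC2 value was -0.17 with normexp correction and -0.11 with the raw mean signal, in both cases without a call. The ferritin chains FTH1 and FTL, which store iron, had 0.069 and -0.015 on their brightest probes. The dimmer probes of FTH1 ran from -0.20 to 0.069 and those of FTL from -0.14 to 0.030, and 0 of these 5 was called. The FTH1 probes disagreed, since those at -0.20 and -0.17 had all DFX tumors below all control tumors and those at 0.069 overlapped. All DFX tumors lay below all control tumors for 9.15% of all tested probes.

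In the glutathione list, 1 of 17 genes was called. It was GLRX, the glutaredoxin that removes glutathione from proteins, at 11.04, 11.24 and 10.94 in the DFX tumors against 10.77, 10.56 and 10.44, a log2 fold change of 0.48 (standard error 0.14). GSS, which completes glutathione synthesis, had 0.13 (standard error 0.10), and GSR, which recycles it, had 0.12 (standard error 0.09). Neither was called. The groups of both did not overlap, with DFX higher, as for 6.34% of all tested probes. A dimmer GSR probe had 0.0037 with overlapping groups. The glutathione-degrading enzyme CHAC1, an ATF4 target that is also read as a sign of ferroptosis, had 0.15 with a standard error of 0.30. Of the 17 thioredoxin and peroxiredoxin genes, 5 had a higher and 12 a lower mean in the DFX tumors. The share of all tested genes with a lower mean is not given here. The list median was -0.141, against -0.012 over all tested genes. In this list 2 were called, both lower, which is 11.8% against 7.98% of all tested genes. PRDX3, the mitochondrial peroxiredoxin, was at 11.69, 11.83 and 11.54 against 12.07, 11.97 and 12.44, a log2 fold change of -0.48 (standard error 0.16). TXNRD2, the mitochondrial thioredoxin reductase, had -0.81 (standard error 0.33) with overlapping groups and 2 of the 3 DFX tumors well above background, and is named here after its value was seen. TXN, the thioredoxin that TXNRD1 reduces, had 0.032.

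Among 19 tested genes of the glutathione peroxidase family and of selenoprotein synthesis, 2 were called, both higher. That is 10.5%, against 7.98% of all tested genes. GPX1, the abundant cytosolic family member, had 0.27 on its brightest probe and -0.066 on the other, so its probes disagreed. SELK, a selenoprotein of the endoplasmic reticulum, had 0.24 (standard error 0.09). Of 25 tested genes of lipid peroxidation and ferroptosis promotion, ACSL5, another acyl-CoA synthetase, was called higher at 0.28 and TFRC lower at -0.41. TFRC encodes the transferrin receptor that imports iron, and it was at 11.59, 11.70 and 11.78 in the DFX tumors against 11.94, 12.06 and 12.29 in the control tumors. LPCAT3, which inserts the acyl chains that ACSL4 activates, had 0.20 (standard error 0.10) without a call. It had 0.22 with a call after normexp correction and with the raw mean signal, and 5 of the 18 alternatives called it. PTGS2, whose transcript is used as a sign of ferroptosis, had -0.20 (standard error 0.22). It was -0.024 without DFX replicate 1 and -0.43 without DFX replicate 3, with an unadjusted limma p of 0.0235 in the latter case. Of 26 genes of ferroptosis defense that does not use GPX4, 1 was called, higher in the DFX tumors. DHODH, which reduces ubiquinone in mitochondria, had 0.12 (standard error 0.16).

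The 13 called genes of these lists whose groups did not overlap had adjusted limma p-values of 0.522 to 0.584. Without DFX replicate 1, 12 of the 13 no longer passed the unadjusted threshold, at sizes of 0.23 to 0.50 on the log2 scale, and GLRX was the exception. Without DFX replicate 2 it was 9 of them, and without control replicates 1, 2 and 3 it was 5, 7 and 6. Without DFX replicate 3 it was 4. GLRX kept the call in all 6 of these settings, with log2 fold changes of 0.40 to 0.57. Its unadjusted limma p with all tumors, 0.0136, was the lowest of the 13. Over all 18 alternatives GLRX was called in 17, and the call was lost with median scaling. Over all tested probes, 2675 were called with all tumors and 1889 without DFX replicate 1. Without any 1 of the other tumors 2279 to 2717 were called. The 13 genes were picked because they passed, so among them calls could only be lost.

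**Figure D4:**
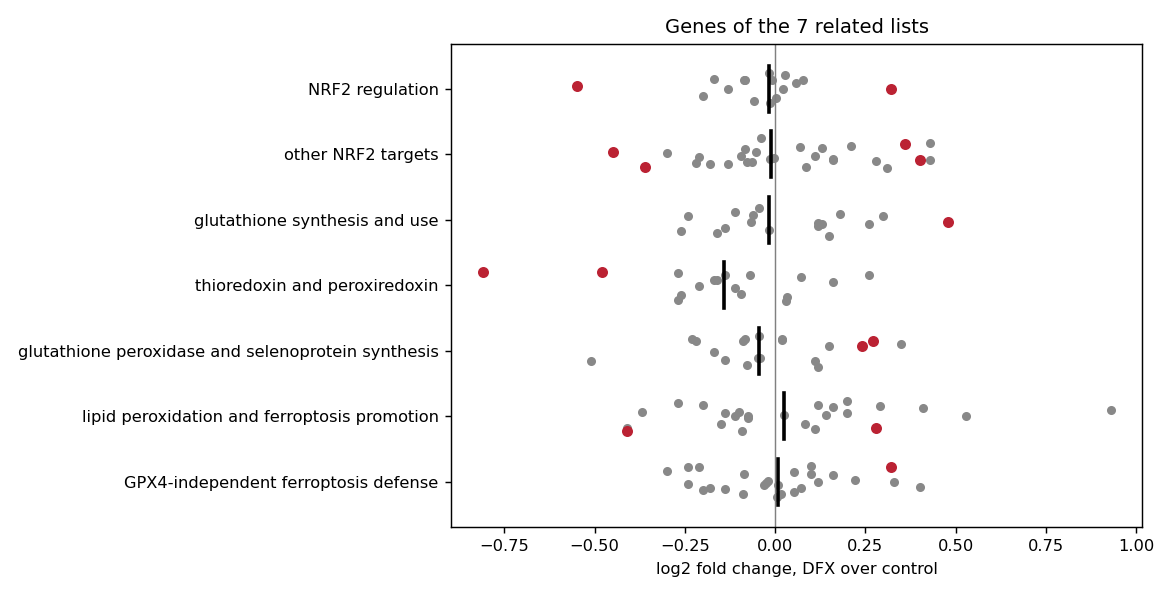
Log2 fold change of DFX over control tumors (horizontal axis) for the tested genes of the 7 related lists (rows), each by its brightest probe, with red for an unadjusted limma p under 0.05 and a black bar for the list median. The medians lie between -0.141 and 0.026, and called genes are found on both sides of zero.

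The promoters of the members give the sequence side of the NRF2 list. NRF2 binds the antioxidant response element with a small MAF partner, and its core TGACNNNGC was searched on both strands (GCNNNGTCA on the other) from 250 bases before to 50 after the gene starts in RefSeq, GRCh38.p14. The table held 13 promoters of 9 of the genes. The core was found in 4 of the 13, those of AIFM2 and GCLM and both of TXNRD1, and in 13.4% of all 35093 promoters of this length. The 5 sites follow 5′ to 3′ on the gene's strand, with the core in capitals.
AIFM2, chr10:70132829-70132857, minus strand: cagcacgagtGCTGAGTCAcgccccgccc
GCLM, chr1:93909446-93909474, minus strand: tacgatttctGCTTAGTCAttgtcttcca
TXNRD1 first start, chr12:104215670-104215698, plus strand: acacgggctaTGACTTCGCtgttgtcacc
TXNRD1 first start, chr12:104215761-104215789, plus strand: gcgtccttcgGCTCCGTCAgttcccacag
TXNRD1 second start, chr12:104286920-104286948, plus strand: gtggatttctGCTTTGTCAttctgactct

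The AIFM2 site also holds TGANTCA, the AP-1 element. The match is one of letters only, and elements outside these windows were not searched. The genes with a match had log2 fold changes of -0.0074, 0.048 and -0.17, and none of them was called.

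**Figure D5:**
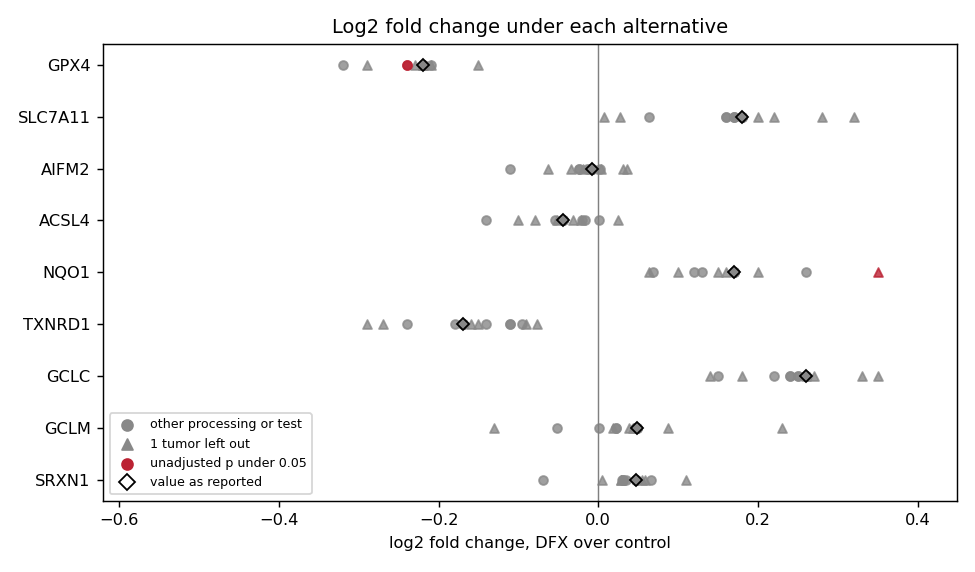
Log2 fold change of DFX over control tumors (horizontal axis) for the 9 tested genes as reported (diamonds) and under 18 alternatives, with triangles for 1 tumor left out, circles for other processing or tests, and red for an unadjusted p under 0.05. GPX4, SLC7A11, NQO1, TXNRD1 and GCLC keep their sign in all of them, and red marks are found only for GPX4 and NQO1.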

How the data were processed

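RNA from 3 control and 3 DFX tumors was hybridized to one-color arrays. The authors deposited scanner intensities per spot, written by Agilent Feature Extraction 10.7.1.1 per the file headers (9.5.1.1 per the labels), with a background p-value and flags, and a table of their normalized intensities. Here the processed signal of 58717 non-control spots was log2-transformed and quantile-normalized, 1398 flagged spot values were dropped, and replicate spots were averaged. Probes whose median background p-value was under 0.05 on each of the 6 arrays were tested with limma 3.58.1 in R 4.3.3 (95% intervals, Benjamini-Hochberg adjustment over 31807 probes). Called means an unadjusted p under 0.05. The numbers of arrays limit the precision.

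Members and lists were chosen with earlier results of these data known. Named are all members, 19 related genes whatever their values, and per list up to 4 called genes with the lowest p and no overlap. 1 such gene and 1 probe sequence are not reported here. Positions of probes come from the array's own annotation (hg19), and exon or UTR positions were not looked up. In a test on simulated data, made for DFX against control over 31807 probes, limma found 85% of log2 changes of 1 and 98% of changes of 2, and called 5.47% of unchanged probes. Alternatives covered scaling, background correction, signal column, filters, flags, the authors' values, the test, array weights, the replicate number and each tumor left out.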

Additional observations from a re-analysis of the deposited data

How the results depend on the processing

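Of the 9 tested genes, GPX4, SLC7A11, NQO1, TXNRD1 and GCLC kept their direction under all 18 alternatives, although SLC7A11 came down to 0.0078 and TXNRD1 ran from -0.29 to -0.077, and the cause of the moves given here was not tested. The count of called member probes, and of member genes, was 0 as reported and 1 with normexp, with the raw mean signal and with the Kruskal-Wallis H test, GPX4 each time, and 0 to 1 with 1 tumor left out, NQO1 without DFX replicate 3. The Kruskal-Wallis H test, which passes whenever groups of 3 do not overlap, called 4927 of all probes, against 2675. The 14 called list genes became 6 with median scaling, 9 with scaling to the 75th percentile, 29 with the Kruskal-Wallis H test, and 2 to 11 with 1 tumor left out, the fewest without DFX replicate 1. With the replicate block they were 5 and the called members 0. Tumors of the same number had deviations from their group means correlated at 0.0274, 0.0267 and 0.0158. Tumors of different numbers were not compared in this way, and whether those of the same number share more than the number was not tested.

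Values near zero changed sign. With median scaling these were GCLM at -0.052, SRXN1 at -0.069, FTH1 at -0.028, MAFF at -0.079, MAFG at -0.055, SQSTM1 at -0.098 and TXN at -0.078. With array quality weights they were ACSL4 at 0.0013, AIFM2 at 0.0021, FTL at 0.028, KEAP1 at 0.00016, MAFF at -0.034 and SQSTM1 at -0.019. SQSTM1 was at -0.0046 with normexp, -0.00078 with the authors' values and -0.0049 with the raw mean signal. Leaving out 1 tumor gave ranges of -0.10 to 0.025 for ACSL4, -0.063 to 0.036 for AIFM2, -0.13 to 0.23 for GCLM, -0.13 to 0.090 for BACH1, -0.064 to 0.44 for CHAC1, -0.021 to 0.24 for DHODH, -0.012 to 0.15 for FTH1, -0.058 to 0.060 for FTL, -0.072 to 0.030 for KEAP1, -0.064 to 0.10 for MAFF, -0.0057 to 0.097 for MAFG, -0.079 to 0.050 for SQSTM1 and -0.068 to 0.11 for TXN.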
